A study of Mus musculus with 15 samples.

Results

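The 37 genes described here encode the enzymes and transporters that activate fatty acids, carry them into mitochondria on carnitine and shorten them by beta-oxidation in mitochondria and peroxisomes. They were taken from the count table by gene symbol. They make up 37 of its 22798 rows, and all 37 were among the 17975 genes that passed the filter on low counts. The study sequenced skeletal muscle RNA of C57BL/6 mice, 12 months old and on a normal diet, that had been starved overnight. There were 6 libraries from exercised mice, 3 from mice labelled CD47-KO, written CD47-/- in the design text for the receptor CD47, and 6 from sedentary wild-type mice. Neither the genotype of the exercised mice nor the activity of the CD47-KO mice is stated apart from these labels. The labels do not give the muscle, the sex, the exercise programme or the way the knockout was made. They also do not state that the libraries of a group came from separate animals, so the p-values reflect the spread from library to library, which may in part be technical.

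A long-chain fatty acid is taken up, joined to coenzyme A by an acyl-CoA synthetase, transferred to carnitine by CPT1 on the outer mitochondrial membrane and back to coenzyme A by CPT2 inside. Each round of beta-oxidation is a dehydrogenation, a hydration, another dehydrogenation and a thiolysis, and the electrons of the acyl-CoA dehydrogenases pass through electron transfer flavoprotein to the respiratory chain. Malonyl-CoA, made by acetyl-CoA carboxylase and removed by malonyl-CoA decarboxylase, inhibits CPT1. Muscle relies on this pathway during fasting and endurance exercise, and the nuclear receptors of the PPAR and ERR families and their coactivator PGC-1 alpha are known to drive many of its genes.

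Total counts were 54851831 to 77628546 in exercise, 76005277 to 84364189 in CD47-KO and 50928458 to 70774311 in sedentary libraries, and the lowest count of any of the 37 genes in any library was 17. Levels are in CPM, counts scaled to library size. Cd47 itself was at 10.8 to 15.7 CPM in exercise libraries, 11.5 to 12.1 CPM in the libraries labelled CD47-KO and 11.4 to 16.4 CPM in sedentary libraries. It was not called lower in the libraries labelled CD47-KO than in sedentary ones (log2 fold change -0.26 ± 0.17 SE, edgeR adjusted p = 0.295). Which part of Cd47 was deleted is not given, so its count may not check the label, and the directions given for these libraries rest on the label alone. All 8 skeletal muscle markers looked at were counted in every library. The titles number the exercise and sedentary libraries 1 to 6, and these numbers are used here. The descriptions give exercise libraries 4, 5 and 6 the numbers 6, 7 and 8, and the other exercise and sedentary libraries the same number as the title. Libraries 1 to 3 of both groups differ from libraries 4 to 6 of both groups across the genome, a split that no label names. It is treated here as 2 sets, and the effect of exercise is given within each. Sedentary library 1 had a slow fibre marker sum of 24755 CPM, against 1463 to 9122 CPM in the other sedentary libraries. Sedentary library 6 had the lowest scaling factor of all, 0.795, with 18.2% of its counts from mitochondrially encoded genes. The values within each set are followed by values without these libraries. In such bulk samples, fewer cells of a type and less RNA per cell cannot be told apart.

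The promoter windows of 4 genes are shown, each from 250 bases before to 50 bases after the annotated start, from RefSeq on GRCm38.p6, written 5′ to 3′ on the strand of the gene. They belong to genes on which the results turn or which share a start region and, with Acadm, to a gene that holds the motif searched for. Hadha and Hadhb encode the alpha and beta subunits of the mitochondrial trifunctional protein and are read in opposite directions from start sites 273 bases apart, so 228 bases of the Hadhb window, in capitals, also lie in the Hadha window. Acot1 and Acot2, acyl-CoA thioesterases of the cytosol and of the mitochondrial matrix, lie 15617 bases apart on chromosome 12. In the window of Acadm, the medium-chain dehydrogenase, capitals mark AGGTCA on either strand, the core site that many nuclear receptors bind. The Hadhb window is chr5:30155003-30155302 on the plus strand, the Acot1 window chr12:84009252-84009551 on the plus strand, the Acot2 window chr12:83987611-83987910 on the plus strand and the Acadm window chr3:153944594-153944893 on the minus strand.
Hadhb: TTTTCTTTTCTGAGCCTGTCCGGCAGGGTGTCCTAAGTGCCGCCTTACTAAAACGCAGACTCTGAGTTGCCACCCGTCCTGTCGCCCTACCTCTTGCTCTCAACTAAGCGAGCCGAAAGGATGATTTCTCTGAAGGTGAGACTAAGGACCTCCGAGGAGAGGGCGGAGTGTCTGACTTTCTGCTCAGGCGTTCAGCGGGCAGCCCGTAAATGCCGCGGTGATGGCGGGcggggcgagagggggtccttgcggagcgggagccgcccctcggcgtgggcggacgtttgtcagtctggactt
Acot1: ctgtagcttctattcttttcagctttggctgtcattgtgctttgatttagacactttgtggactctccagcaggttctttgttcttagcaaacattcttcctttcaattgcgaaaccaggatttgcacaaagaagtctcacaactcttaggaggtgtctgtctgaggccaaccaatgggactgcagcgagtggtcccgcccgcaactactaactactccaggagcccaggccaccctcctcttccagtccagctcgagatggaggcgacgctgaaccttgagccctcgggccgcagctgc
Acot2: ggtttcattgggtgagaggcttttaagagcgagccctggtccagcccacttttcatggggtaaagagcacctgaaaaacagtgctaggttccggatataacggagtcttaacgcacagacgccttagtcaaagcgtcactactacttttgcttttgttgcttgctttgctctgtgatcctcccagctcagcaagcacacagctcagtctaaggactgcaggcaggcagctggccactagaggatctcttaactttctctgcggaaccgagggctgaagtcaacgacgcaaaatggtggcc
Acadm: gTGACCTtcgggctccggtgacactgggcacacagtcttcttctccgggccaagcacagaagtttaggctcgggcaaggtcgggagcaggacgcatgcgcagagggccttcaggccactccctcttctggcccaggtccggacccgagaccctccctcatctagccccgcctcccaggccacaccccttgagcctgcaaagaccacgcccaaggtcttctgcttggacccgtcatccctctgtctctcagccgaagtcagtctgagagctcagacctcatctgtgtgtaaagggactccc
Windows were at hand for 31 of the 37 genes. AGGTCA on either strand was found in 6 of their 36 windows (16.7%) and in 16.3% of all 32851 windows. The longer AAGGTCA was found in 3 of the 36 windows, those of Acacb, Acadm and Acsl6, and in 4.72% of all windows. The direct repeat AGGNCANAGGNCA was in 0 of the 36 windows and in 0.381% of all windows. These are matches of letters only.

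Levels per kilobase of merged exons allow the genes to be set side by side. The exercise, CD47-KO and sedentary means were 210, 163 and 180 CPM per kb for Ech1, a dienoyl-CoA isomerase, and 166, 204 and 119 CPM per kb for Acadl, the long-chain dehydrogenase. Hadha, the alpha subunit of the trifunctional protein, averaged 125, 120 and 100 CPM per kb. Not divided by exon length, its means were 504 ± 116 CPM in exercise (SD, n = 6), 481 ± 129 CPM in CD47-KO (n = 3) and 402 ± 118 CPM in sedentary libraries (n = 6). Etfb, the beta subunit of electron transfer flavoprotein, averaged 183, 106 and 167 CPM per kb. Of the forms of CPT1, the muscle form Cpt1b was the more abundant. Its exercise, CD47-KO and sedentary means were 133, 110 and 114 CPM per kb, against 3.46, 2.48 and 3.74 CPM per kb for Cpt1a, the form best known from liver. Acsl1 led the synthetases with 78.6, 89.5 and 64.1 CPM per kb in the same groups, while Acsl3, Acsl4, Acsl5 and Acsl6 stayed under 5 CPM per kb in every group. Of the 3 peroxisomal genes, Hsd17b4, the D-bifunctional enzyme, was at 25.5, 30.1 and 17.2 CPM per kb. Mlycd, malonyl-CoA decarboxylase, averaged 83.7, 63.2 and 67.5 CPM per kb. Acot13, a mitochondria-associated thioesterase, averaged 77.0, 62.8 and 80.4 CPM per kb. All 37 genes together took 3937 to 7604 CPM in exercise, 4778 to 6682 CPM in CD47-KO and 3686 to 5846 CPM in sedentary libraries, so the groups overlapped.

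**Figure D1:**
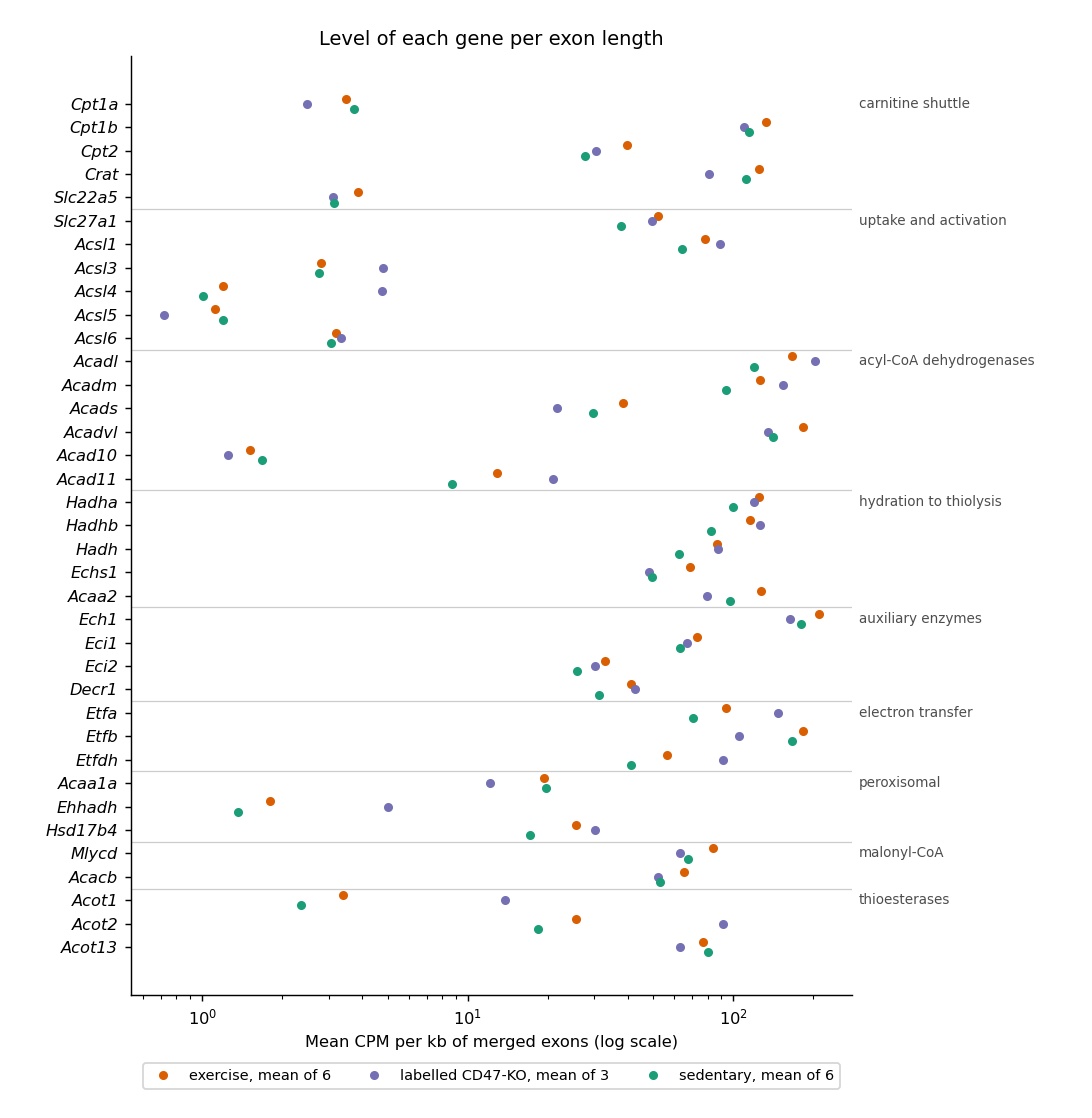
Mean CPM per kilobase of merged exons (log axis) of each of the 37 genes, grouped by role, with 1 point for the 6 exercise, 3 CD47-KO and 6 sedentary libraries. Cpt1b lies above Cpt1a, and Acsl1 above the other synthetases, in every group.

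With all 6 exercise libraries set against all 6 sedentary libraries, most of the genes had somewhat higher levels after exercise, and none passed the test. The log2 fold change was above 0 for 32 of 37 genes, with a median of 0.35, beside a median of -0.03 over all 17975 genes. Counted by edgeR's quasi-likelihood test at an adjusted p of 0.05, 0 of 37 genes were called in either direction, as were 0% of all genes higher and 0% lower. At an unadjusted p under 0.05 there were 3 of 37 genes and 665 of all genes. That count of 3 became 9 without exercise library 2 or 3, 8 without sedentary library 1 and 5 without sedentary library 5. It became 2 without exercise library 4, 5 or 6 or sedentary library 2 or 6. DESeq2 and limma-voom called 0 of the 37 too. For 0 of 37 genes did all exercise libraries lie above or below all sedentary libraries, which held for 0.1% of all genes above and 0.0612% below.

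The smallest p belonged to Cpt2, the inner carnitine palmitoyltransferase. Cpt2 was at 65.5, 94.5 and 135 CPM (lowest, median and highest of 6) in exercise libraries, against 48.0, 68.6 and 78.9 CPM in sedentary libraries. Its log2 fold change was 0.53 ± 0.19 (SE, adjusted p = 1.00). Acads, the short-chain dehydrogenase, was at 55.0, 72.6 and 86.7 CPM in exercise libraries, against 49.0, 54.0 and 69.4 CPM in sedentary libraries, with a log2 fold change of 0.37 ± 0.14 (adjusted p = 1.00). For both, the upper exercise libraries lay above every sedentary library and the lower ones did not. Hsd17b4 was at 41.2, 65.7 and 97.7 CPM in exercise libraries, against 23.5, 49.9 and 56.7 CPM in sedentary libraries (log2 fold change 0.57 ± 0.25, adjusted p = 1.00). Slc27a1 (a fatty acid transport protein), Eci2 (an enoyl-CoA isomerase), Acad11 (a dehydrogenase), Acadl and Hadh (the medium- and short-chain hydroxyacyl-CoA dehydrogenase) followed, with log2 fold changes of 0.35 to 0.56 and the same adjusted p. Every group of roles had a median above 0, the lowest being the uptake and activation genes at 0.15.

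Within the sets, the counts of genes with higher levels after exercise were unlike. In libraries 4 to 6, 31 of 37 genes had a log2 fold change above 0 and the median was 0.72. In libraries 1 to 3, 15 of 37 were above 0 and the median was -0.03. The medians over all genes were -0.02 in libraries 4 to 6 and -0.01 in libraries 1 to 3. In libraries 4 to 6, all 3 exercise libraries lay above all 3 sedentary libraries for 26 of the 37 genes, beside 7.71% of all genes, and below them for 0, beside 6.03%. In libraries 1 to 3 the groups were apart in this way for 3 genes (Crat, Acad11 and Acacb), all higher in exercise, beside 4.93% of all genes higher and 5.17% lower. Crat is carnitine acetyltransferase and Acacb the mitochondria-bound acetyl-CoA carboxylase. By edgeR, 0 of the 37 genes were called in libraries 4 to 6, as were 0.00556% of all genes higher and 0.00556% lower, and 0 of 37 were called in libraries 1 to 3, as were 0% of all genes higher and 0% lower. At an unadjusted p under 0.05 there were 23 of 37 in libraries 4 to 6 (1687 of all genes) and 0 of 37 in libraries 1 to 3 (662 of all genes). The 23 became 13 without exercise library 6 and 14 without sedentary library 6.

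**Figure D2:**
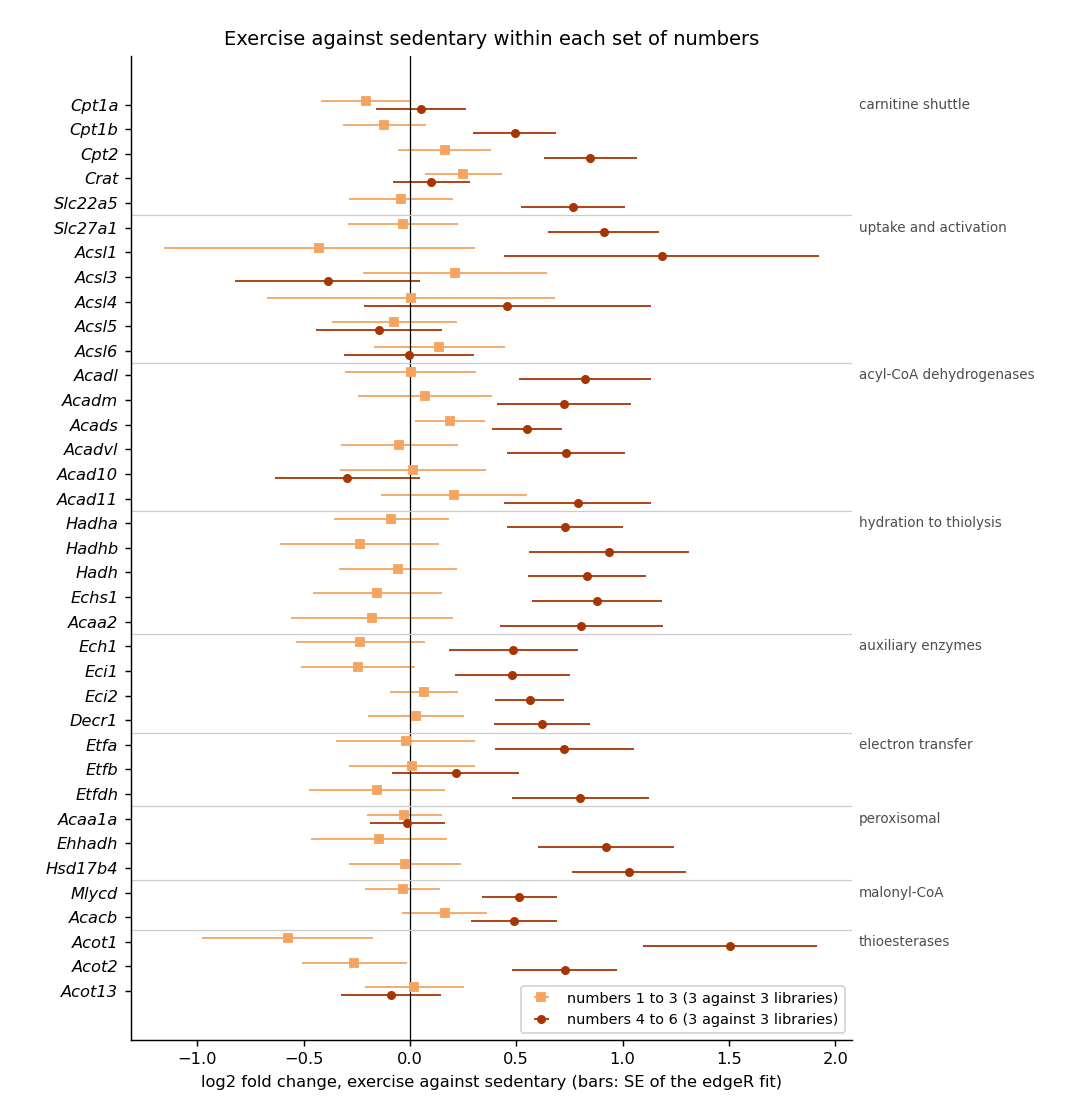
The log2 fold change of exercise against sedentary with its SE for each of the 37 genes by role, within libraries 1 to 3 (squares) and within libraries 4 to 6 (circles), 3 against 3 libraries each. In libraries 4 to 6 the values are above 0 for 31 genes, while those of libraries 1 to 3 lie on both sides of 0.

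Among the carnitine shuttle genes, Cpt2 was at 103, 95.5 and 135 CPM in exercise libraries 4 to 6, against 70.9, 66.3 and 48.0 CPM in sedentary libraries 4 to 6. Cpt2 was at 93.4, 72.7 and 65.5 CPM in exercise libraries 1 to 3, against 78.9, 56.7 and 71.2 CPM in sedentary libraries 1 to 3. The groups did not overlap in libraries 4 to 6 (log2 fold change 0.85 ± 0.22, adjusted p = 0.377) and overlapped in libraries 1 to 3 (0.16 ± 0.22, adjusted p = 1.00). Cpt1b, at 400, 450 and 551 CPM in exercise and 336, 342 and 318 CPM in sedentary libraries 4 to 6, did not overlap there either (0.49 ± 0.19, adjusted p = 0.475). Cpt1b was at 349, 289 and 275 CPM in exercise libraries 1 to 3, against 393, 257 and 343 CPM in sedentary libraries 1 to 3 (-0.12 ± 0.19). Cpt1a had fold changes of 0.05 ± 0.21 in libraries 4 to 6 and -0.21 ± 0.21 in libraries 1 to 3.

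Of the uptake and activation genes, Slc27a1 was at 166, 172 and 192 CPM in exercise libraries 4 to 6, against 102, 97.9 and 81.8 CPM in sedentary libraries 4 to 6 (log2 fold change 0.91 ± 0.26, adjusted p = 0.408). Slc27a1 was at 159, 107 and 89.2 CPM in exercise libraries 1 to 3, against 167, 90.4 and 106 CPM in sedentary libraries 1 to 3 (-0.03 ± 0.26). In libraries 1 to 3, library 1 was thus the highest of both groups. The synthetases were less uniform: in libraries 4 to 6, the fold changes of Acsl3, Acsl4 and Acsl5 were -0.39, 0.46 and -0.14, and without sedentary library 6 they were -0.82, -0.10 and 0.24. Acsl1, the main muscle synthetase, was at 322, 423 and 404 CPM in exercise libraries 4 to 6, against 254, 240 and 11.7 CPM in sedentary libraries 4 to 6. Its fold change was 1.18 ± 0.74 there, and 0.62 without sedentary library 6.

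The enzymes of the mitochondrial spiral had fold changes of one sign in libraries 4 to 6, with 1 exception that rests on 1 library. Acadl was at 342, 433 and 448 CPM in exercise libraries 4 to 6, against 266, 270 and 156 CPM in sedentary libraries 4 to 6 (log2 fold change 0.82 ± 0.31, adjusted p = 0.469). Acadl was at 312, 198 and 174 CPM in exercise libraries 1 to 3, against 314, 161 and 208 CPM in sedentary libraries 1 to 3, a fold change of 0.00 ± 0.31. Its groups were apart in libraries 4 to 6 and overlapped in libraries 1 to 3. Acadm was at 268, 329 and 332 CPM in exercise libraries 4 to 6, against 258, 208 and 96.5 CPM in sedentary libraries 4 to 6 (0.72 ± 0.32, adjusted p = 0.513). Acadm was at 263, 178 and 175 CPM in exercise libraries 1 to 3, against 227, 159 and 201 CPM in sedentary libraries 1 to 3 (0.07 ± 0.31), the same pattern of overlap. Echs1, the short-chain enoyl-CoA hydratase, was at 132, 146 and 167 CPM in exercise libraries 4 to 6, against 97.2, 97.5 and 47.6 CPM in sedentary libraries 4 to 6 (0.88 ± 0.31, adjusted p = 0.460). Echs1 was at 61.8, 70.6 and 63.8 CPM in exercise libraries 1 to 3, against 101, 65.9 and 51.7 CPM in sedentary libraries 1 to 3 (-0.15 ± 0.30). All 5 genes of hydration to thiolysis (Hadha, Hadhb, Hadh, Echs1 and Acaa2) had fold changes above 0 in libraries 4 to 6, with a median of 0.83, and below 0 in libraries 1 to 3, with a median of -0.15. Without sedentary library 1, 4 of these 5 were above 0 in libraries 1 to 3 (Hadha at 0.20, Hadh at 0.14, Echs1 at 0.15 and Acaa2 at 0.29), and Hadhb was at -0.05. The auxiliary enzymes of unsaturated fatty acids and the electron transfer genes were also above 0 in libraries 4 to 6 in 4 of 4 and 3 of 3 cases. The exception was Acad10, a dehydrogenase of the same family, at -0.29 ± 0.34. It rests on sedentary library 6, where Acad10 was at 12.2 CPM, against 3.81 and 5.01 CPM in sedentary libraries 4 and 5, and without that library the fold change was 0.36.

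Of the peroxisomal genes, Hsd17b4 was at 73.9, 97.7 and 95.8 CPM in exercise libraries 4 to 6, against 55.5, 52.0 and 23.5 CPM in sedentary libraries 4 to 6 (log2 fold change 1.03 ± 0.27, adjusted p = 0.377). Hsd17b4 was at 57.5, 41.2 and 45.1 CPM in exercise libraries 1 to 3, against 56.7, 41.5 and 47.9 CPM in sedentary libraries 1 to 3 (-0.02 ± 0.27). Exercise and sedentary thus did not overlap in libraries 4 to 6 and overlapped in libraries 1 to 3. Ehhadh, the L-bifunctional enzyme and a classical PPAR alpha target in rodent liver, was at 4.73, 7.53 and 7.09 CPM in exercise libraries 4 to 6, against 4.34, 3.74 and 2.11 CPM in sedentary libraries 4 to 6 (0.92 ± 0.32, adjusted p = 0.460). Ehhadh was at 3.85, 5.04 and 3.97 CPM in exercise libraries 1 to 3, against 4.96, 3.52 and 5.73 CPM in sedentary libraries 1 to 3 (-0.15 ± 0.32). Acaa1a, the peroxisomal thiolase, differed in neither set by more than its SE, with fold changes of -0.01 ± 0.18 in libraries 4 to 6 and -0.03 ± 0.18 in libraries 1 to 3.

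The thioesterase Acot1 had the widest gap between the sets. It was at 9.48, 10.4 and 12.4 CPM in exercise libraries 4 to 6, against 4.05, 4.31 and 3.01 CPM in sedentary libraries 4 to 6 (log2 fold change 1.50 ± 0.41, adjusted p = 0.377). Acot1 was at 6.65, 4.65 and 2.53 CPM in exercise libraries 1 to 3, against 12.2, 4.16 and 4.25 CPM in sedentary libraries 1 to 3 (-0.58 ± 0.40). The highest of libraries 1 to 3 was sedentary library 1, and the groups overlapped there. Without that library the fold change was 0.13 in libraries 1 to 3, and the difference between the sets was 1.37 in place of 2.08. Acot2 was at 82.8, 89.3 and 95.1 CPM in exercise libraries 4 to 6, against 46.2, 59.3 and 55.7 CPM in sedentary libraries 4 to 6 (0.73 ± 0.25, adjusted p = 0.460). Acot2 was at 31.8, 20.1 and 16.4 CPM in exercise libraries 1 to 3, against 35.8, 19.1 and 27.1 CPM in sedentary libraries 1 to 3 (-0.26 ± 0.25). The transcripts of both genes, whose windows are printed above, are 79.9% identical over 1921 aligned bases with a longest identical run of 273 bases, so the split of reads between them is uncertain. Of the malonyl-CoA pair, Mlycd was at 265, 215 and 237 CPM in exercise libraries 4 to 6, against 163, 169 and 170 CPM in sedentary libraries 4 to 6 (0.51 ± 0.18, adjusted p = 0.460). Mlycd was at 137, 114 and 100.5 CPM in exercise libraries 1 to 3, against 139, 112 and 108 CPM in sedentary libraries 1 to 3 (-0.04 ± 0.18). Its groups were apart in libraries 4 to 6 alone. Acacb was at 471, 461 and 583 CPM in exercise libraries 4 to 6, against 353, 442 and 284 CPM in sedentary libraries 4 to 6 (0.49 ± 0.20, adjusted p = 0.486). Acacb was at 609, 653 and 648 CPM in exercise libraries 1 to 3, against 605, 493 and 607 CPM in sedentary libraries 1 to 3 (0.16 ± 0.20). Its groups were apart in both sets.

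**Figure D3:**
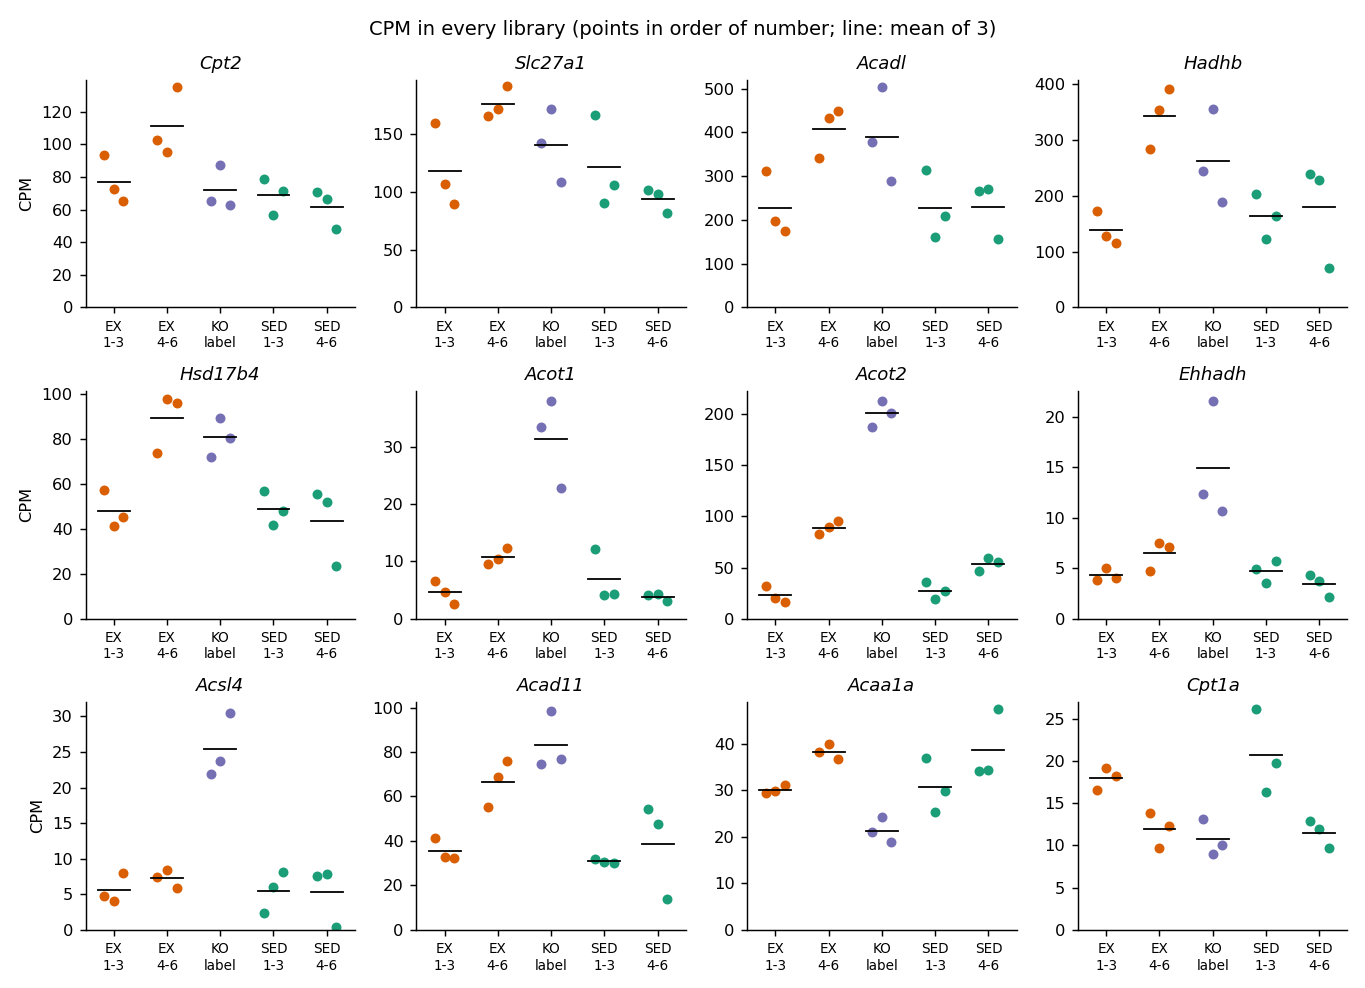
CPM of 12 genes in every library (points in order of library number, lines for means of 3), with exercise 1 to 3 and 4 to 6, libraries labelled CD47-KO, and sedentary 1 to 3 and 4 to 6. Exercise libraries 4 to 6 lie above sedentary libraries 4 to 6 for Cpt2, Slc27a1, Acadl, Hadhb, Hsd17b4, Acot1, Acot2, Ehhadh and Acad11.

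The difference of the exercise effect between the sets was tested for each gene as an interaction, the effect in libraries 4 to 6 minus that in libraries 1 to 3. It was above 0 for 31 of 37 genes, with a median of 0.69, beside a median of -0.00 over all genes. By edgeR, 0 of 37 genes were called, beside 0% of all genes higher and 0% lower. At an unadjusted p under 0.05 there were 14 of 37 and 1035 of all genes. That count of 14 was 7, 3, 8 and 4 without exercise library 2, 3, 5 and 6 in turn, 3, 6 and 8 without sedentary library 1, 3 and 6 in turn, and 21 without sedentary library 2. The smallest p-values belonged to Acot1 (2.08 ± 0.57), Acot2 (0.99 ± 0.35), Hsd17b4 (1.05 ± 0.38), Slc27a1 (0.95 ± 0.37), Echs1 (1.03 ± 0.43) and Ehhadh (1.07 ± 0.45), each with an adjusted p of 0.860. The effect of exercise on these genes is therefore not shown to differ between the sets, whatever the counts within each set.

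The values depend in part on sedentary libraries 1 and 6. Without sedentary library 6, 33 of 37 genes were above 0 in libraries 4 to 6, with a median of 0.52, and exercise lay above both remaining sedentary libraries for 31 of 37 genes, beside 15.3% of all genes. Acad11 then had a log2 fold change of 0.38 in libraries 4 to 6, in place of 0.79. The sign changed for 6 of 37 genes there, with Cpt1a at -0.07, Acaa1a at 0.15 and Acot13 at 0.30 beside Acad10, Acsl4 and Acsl5 above. Without sedentary library 1, 29 of 37 genes were above 0 in libraries 1 to 3, with a median of 0.13. The sign changed for 20 of 37 genes there, for 17 of them to above 0, among them Slc27a1 at 0.26, Hsd17b4 at 0.09, Acaa1a at 0.12, Mlycd at 0.08 and Cpt1b at 0.02. In libraries 1 to 3, 8 of 37 genes were above 0 without exercise library 1 and 23 of 37 without exercise library 3. Without both sedentary libraries 1 and 6, the medians were 0.53 in libraries 4 to 6 and 0.13 in libraries 1 to 3. The median difference was then 0.41, with 3 of 37 genes at an unadjusted p under 0.05. In libraries 4 to 6, DESeq2 called Cpt2 (adjusted p = 0.0422, range 0.0422 to 0.751 over the alternatives) and Hsd17b4 (adjusted p = 0.0429, range 0.0429 to 0.695) higher in exercise, beside 0.334% of all genes called higher.

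Within the sets, fibre marker sums overlapped between exercise and sedentary, save that of Myh1 and Myh2 in libraries 4 to 6. These fast myosin genes, listed here as fast oxidative fibre markers, were both counted in every library. Their sum was 4922, 7261 and 9955 CPM in exercise libraries 4 to 6, against 2141, 4020 and 3790 CPM in sedentary libraries 4 to 6. In libraries 1 to 3 it was 11649, 7296 and 3029 CPM in exercise, against 9032, 3219 and 6402 CPM in sedentary. Of the libraries 1 to 3, library 1 had the largest such sum in both groups. It also had the largest sum of the 37 genes in both, 5643 CPM in exercise and 5846 CPM in sedentary. In libraries 4 to 6 the sum of the 37 genes was 6436, 7137 and 7604 CPM in exercise, in the order of the myosin sums. In sedentary libraries 4 to 6 it was 5029, 4946 and 3902 CPM, highest in library 4, where the myosin sum was lowest. The 10 slow fibre markers, all counted in every library, summed to 1542, 2437 and 1580 CPM in exercise libraries 4 to 6, against 1463, 2271 and 4322 CPM in sedentary libraries 4 to 6. The 7 adipocyte markers summed to 174 to 181 CPM in exercise libraries 4 to 6, against 131, 141 and 568 CPM in sedentary libraries 4 to 6. Their part in the result was not tested.

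In the libraries labelled CD47-KO, a small group of genes was higher than in sedentary muscle. It held the thioesterases Acot1 and Acot2, the synthetase Acsl4, the peroxisomal Ehhadh, the dehydrogenase Acad11 and the electron transfer genes Etfa and Etfdh. The peroxisomal thiolase Acaa1a was lower. Of these genes, only Acot1, Acot2 and Ehhadh kept their calls after the correction for GC content given below. By edgeR, 7 of 37 genes were called higher, beside 11.9% of all genes, and 1 of 37 lower, beside 8.75%. The remaining 29 genes, among them the main enzymes of the mitochondrial spiral and Cpt1b, did not pass by edgeR. The median log2 fold change was 0.14 with 21 of 37 above 0, beside -0.11 over all genes. DESeq2 called 10 of 37 higher, beside 14.3% of all genes, and 2 of 37 lower, beside 12.7%. It added Acadl, Acadm and Hsd17b4 to the higher genes and Acads to the lower. All 3 CD47-KO libraries lay above all 6 sedentary libraries for 8 of 37 genes (15.7% of all genes) and below them for 3 (10.3%).

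Acot1 was at 33.5, 38.1 and 22.8 CPM in the CD47-KO libraries, against 3.01, 4.20 and 12.2 CPM (lowest, median and highest of 6) in sedentary libraries, a log2 fold change of 2.56 ± 0.44 (adjusted p = 0.000837). Acot2 was at 188, 213 and 202 CPM in the CD47-KO libraries, against 19.1, 41.0 and 59.3 CPM in sedentary libraries (2.31 ± 0.49, adjusted p = 0.00333). Both rose well beyond the sedentary range, and their joint rise is subject to the shared sequence noted above. Ehhadh was at 12.3, 21.6 and 10.7 CPM in the CD47-KO libraries, against 2.11, 4.04 and 5.73 CPM in sedentary libraries (1.87 ± 0.30, adjusted p = 0.000508). Acsl4, which prefers arachidonic acid, was at 21.9, 23.7 and 30.5 CPM in the CD47-KO libraries, against 0.366, 6.80 and 8.09 CPM in sedentary libraries (2.24 ± 0.54, adjusted p = 0.00825). Neither gene overlapped between the groups. Acad11 was at 74.5, 98.3 and 76.7 CPM in the CD47-KO libraries, against 13.7, 31.2 and 54.4 CPM in sedentary libraries (1.26 ± 0.35, adjusted p = 0.0163). Etfa, the alpha subunit of electron transfer flavoprotein, was at 186, 267 and 161 CPM in the CD47-KO libraries, against 48.7, 107 and 133 CPM in sedentary libraries (1.06 ± 0.32, adjusted p = 0.0266). For both, every CD47-KO library lay above every sedentary library. The partner of Etfa, Etfb, did not pass (-0.66 ± 0.30, adjusted p = 0.127), and Etfdh, which passes the electrons on to ubiquinone, rose by 1.15 ± 0.38 (adjusted p = 0.0412). Acaa1a was at 21.1, 24.2 and 18.8 CPM in the CD47-KO libraries, against 25.3, 34.2 and 47.6 CPM in sedentary libraries (-0.70 ± 0.20, adjusted p = 0.0196), with no overlap. Its transcript is 91.0% identical over 1639 aligned bases to that of Acaa1b, so its count is uncertain as well.

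**Figure D4:**
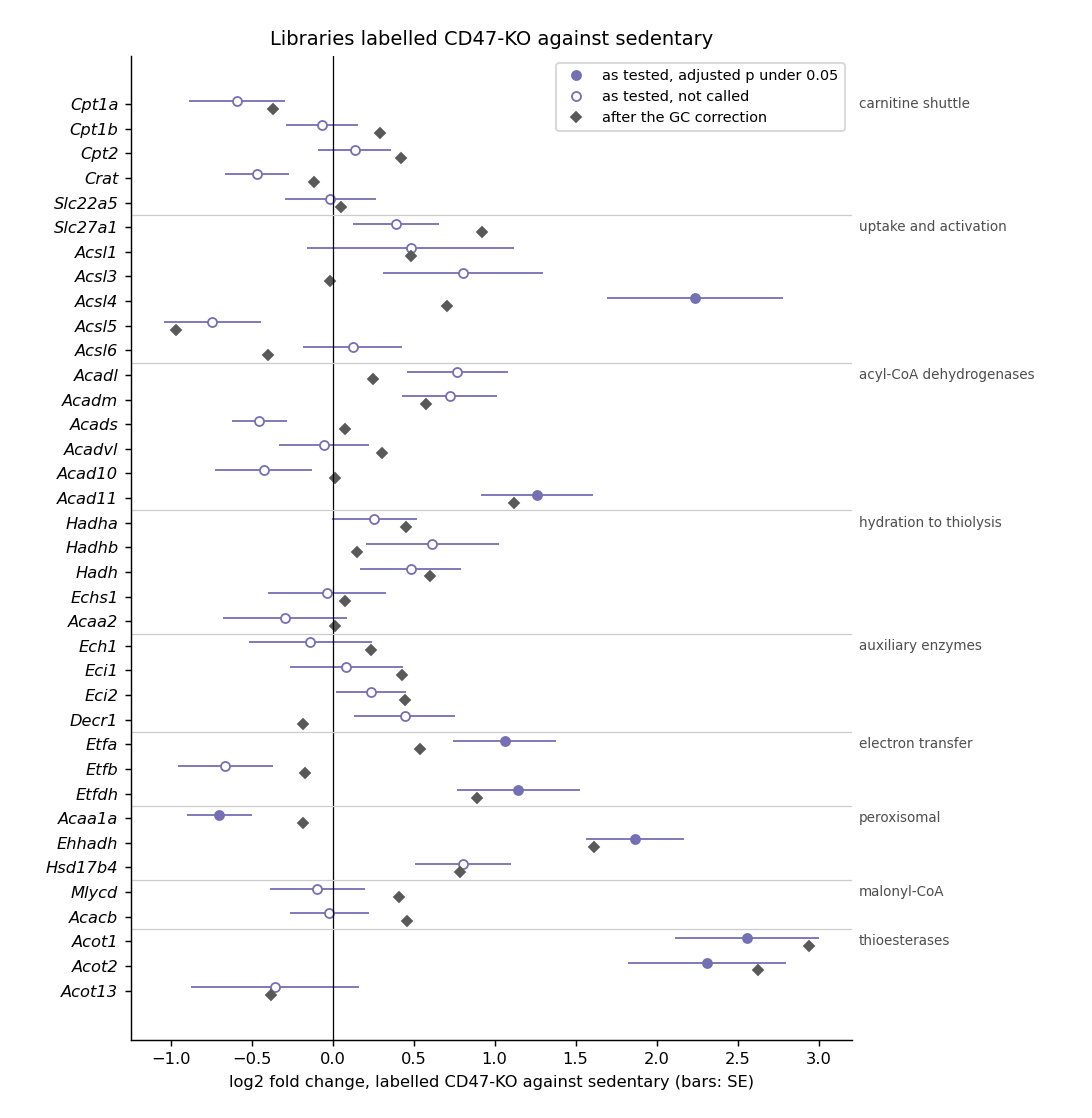
Log2 fold changes, CD47-KO label against sedentary, with the SE for each of the 37 genes by role (filled circles: adjusted p under 0.05), and the value after the GC correction (diamonds). The 7 filled circles above 0 include Acot1 and Acot2, whose diamonds lie further from 0, and Acsl4, whose diamond lies near 0.71.

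The base composition of the transcripts moved with this comparison. Across 10396 genes, the Spearman correlation of a library's deviation from the mean with GC content was -0.65 to -0.61 in the CD47-KO libraries, -0.02 to 0.46 in exercise and -0.15 to 0.51 in sedentary libraries. Across the 37 genes the fold change was lower at higher GC content (Spearman -0.58, over genes that share the libraries). Acsl4 has the lowest GC content of the 37, 39.0%, and Acaa1a one of the highest, 59.4%. After a correction for GC content, 4 of 37 genes were called higher, beside 3.88% of all genes, and 0 lower, beside 3.97%. Acot1 (2.94, adjusted p = 0.000571), Acot2 (2.63, adjusted p = 0.00541) and Ehhadh (1.61, adjusted p = 0.00271) kept their calls, and Slc27a1 gained one (0.92, adjusted p = 0.0349). Acsl4 (0.71, adjusted p = 0.485), Acad11 (1.12, adjusted p = 0.0546), Etfa (0.54, adjusted p = 0.327) and Acaa1a (-0.18, adjusted p = 0.696) lost theirs, as did Etfdh (0.89, adjusted p = 0.169). Over all 26 alternatives, Acot1, Acot2 and Ehhadh were called in 26, with adjusted p up to 0.00683, 0.0166 and 0.00915. Without CD47-KO library 2, 5 genes were called, and Acad11, Etfa and Etfdh lost their calls. Etfdh, called under 18 of the 26, also lost its call without CD47-KO library 1 or 3 or sedentary library 1, 2 or 3. Acaa1a lost its call without CD47-KO library 1 or 3. No label ties the CD47-KO libraries to either set, and the label and a batch of their own cannot be told apart.

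The sums of markers of other cells in these libraries were as follows. The 3 fibroblast markers, all counted in every library, summed to 243 to 293 CPM in CD47-KO libraries and 82.6 to 460 CPM in sedentary libraries, with medians of 258 and 118 CPM. The 460 CPM belonged to sedentary library 1, and the others had 82.6 to 164 CPM. The 7 adipocyte markers, 4 of them counted in every library, summed to 195 to 273 CPM in CD47-KO libraries and 121 to 568 CPM in sedentary libraries. Their medians were 202 and 143 CPM. The 568 CPM belonged to sedentary library 6, and the others had 121 to 188 CPM. The 5 endothelial markers, all counted in every library, summed to 144 to 173 CPM in CD47-KO libraries and 137 to 366 CPM in sedentary libraries. The 5 hepatocyte markers summed to 0.128 to 0.229 CPM in CD47-KO libraries, with Ttr at 0 in all of them, and 0.433 to 29.6 CPM in sedentary libraries. The 8 skeletal muscle markers summed to 107844 to 159841 CPM in CD47-KO libraries and 142188 to 265792 CPM in sedentary libraries. The 142188 CPM belonged to sedentary library 1, and the others had 195821 CPM or more. The share of counts from the mitochondrial genome was 18.1 to 19.2% in CD47-KO libraries and 4.77 to 18.2% in sedentary libraries. The 18.2% belonged to sedentary library 6, and the others had 4.77 to 9.21%. Their part in the result was not tested.

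Against the exercise libraries, the CD47-KO libraries showed 4 of 37 genes called higher (12.2% of all genes) and 3 lower (8.34%). The higher ones were Ehhadh (1.47 ± 0.30, adjusted p = 0.00265), Acot1 (2.03 ± 0.44, adjusted p = 0.00375), Acot2 (1.84 ± 0.49, adjusted p = 0.0129) and Acsl4 (1.99 ± 0.54, adjusted p = 0.0154). Their exercise levels had medians of 4.88, 8.06, 57.3 and 6.65 CPM, and no CD47-KO library overlapped with any exercise library for these genes. The lower ones were Acads (-0.83 ± 0.17, adjusted p = 0.00279), Acaa1a (-0.68 ± 0.20, adjusted p = 0.0221) and Crat (-0.63 ± 0.20, adjusted p = 0.0334). Acads was at 37.8, 41.3 and 42.7 CPM in the CD47-KO libraries, against 55.0, 72.6 and 86.7 CPM (lowest, median and highest of 6) in exercise libraries. After the GC correction, 3 genes stayed higher, Ehhadh, Acot1 and Acot2, beside 4.12% of all genes, and 0 stayed lower. Acot2 lost its call without CD47-KO library 2 and Acsl4 without CD47-KO library 3. Acaa1a lost its call without exercise library 4, 5 or 6 or CD47-KO library 1 or 3, and Crat without exercise library 2, 4 or 5, any CD47-KO library or sedentary library 4. The comparison shares its CD47-KO libraries with the one against sedentary.

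Taking exercise and sedentary together, libraries 1 to 3 were lower than libraries 4 to 6 for most of the genes, with a median log2 fold change of -0.34 and 6 of 37 above 0, beside a median of 0.05 over all genes. By edgeR, 3 of 37 were called higher in libraries 1 to 3, beside 16% of all genes, and 10 of 37 lower, beside 15.4%. The higher ones were Cpt1a (0.72 ± 0.15, adjusted p = 0.00247), Acsl3 (1.14 ± 0.31, adjusted p = 0.0125) and Acacb (0.50 ± 0.14, adjusted p = 0.0161, and 0.0874 after the GC correction). The lower ones included Acot13 (-1.56 ± 0.17, adjusted p = 2.8e-05), Acot2 (-1.47 ± 0.18, adjusted p = 5.9e-05), Mlycd (-0.75 ± 0.12, adjusted p = 0.000527) and Decr1, a dienoyl-CoA reductase (-0.76 ± 0.16, adjusted p = 0.00268). Acot13 was at 26.0 to 34.3 CPM in exercise libraries 1 to 3 and 27.7 to 29.8 CPM in sedentary libraries 1 to 3, against 73.3 to 86.8 CPM in exercise libraries 4 to 6 and 63.1 to 130 CPM in sedentary libraries 4 to 6, with no overlap. All 4 auxiliary enzymes (Ech1, Eci1, Eci2 and Decr1) were lower. The sets were chosen with earlier results of these data known, in which they already separated. Small p-values between the sets are therefore in part built in, and they do not test whether the sets differ.

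Exon length moved with the difference between the sets. The 3 genes higher in libraries 1 to 3 have merged exons of 3950 to 8788 bases, and the 10 lower ones of 721 to 2959 bases. Across the 37 genes, the Spearman correlation of the fold change with exon length was 0.59, over genes that share the libraries. Across 10396 genes, each library's deviation from the mean correlated with exon length at 0.11 to 0.30 in libraries 1 to 3 of both groups and at -0.48 to -0.27 in libraries 4 to 6 of both groups. The ratio of the CPM of Hadha (4017 bases) to that of Hadhb (2080 bases), genes that share the start region printed above, also differed between the sets, save in sedentary library 6. It was 2.95 to 3.18 in exercise and 2.51 to 3.05 in sedentary libraries 1 to 3. In libraries 4 to 6 it was 1.63 to 1.83 in exercise and 1.59, 1.65 and 4.19 in sedentary. The 4.19 belonged to sedentary library 6, whose deviation correlated with exon length at -0.46. In the CD47-KO libraries the ratio was 1.74 to 1.93, lower than in libraries 1 to 3. Yet their deviations correlated with exon length at 0.27 to 0.40, above 0 as in libraries 1 to 3. The part of exon length in these differences was not tested.

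**Figure D5:**
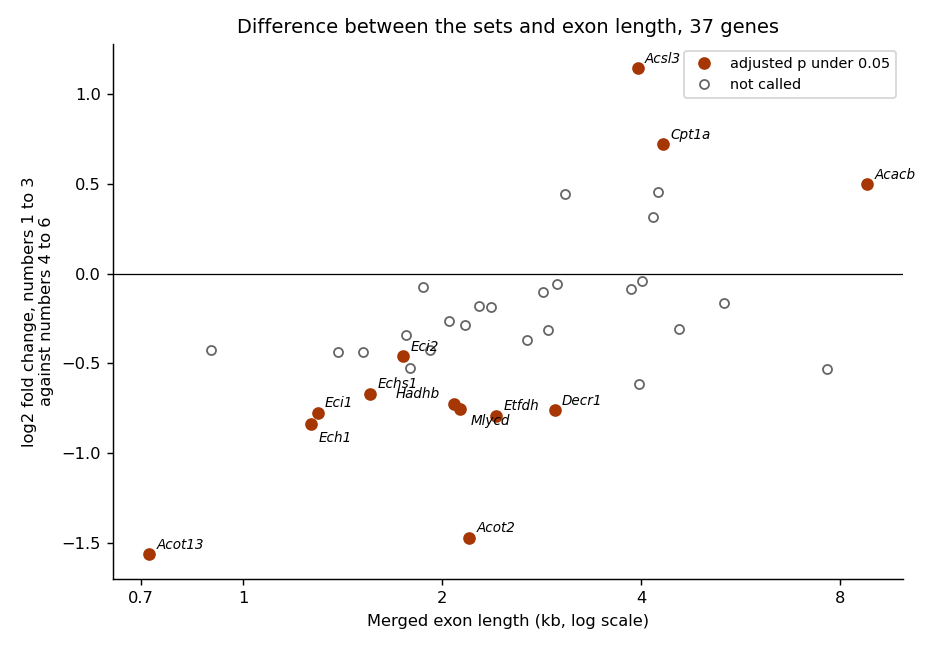
The log2 fold change of libraries 1 to 3 against libraries 4 to 6 (exercise and sedentary together) of each of the 37 genes, against its merged exon length in kilobases (log axis). The 3 called genes above 0 are 3950 bases or longer and the 10 called genes below 0 are 2959 bases or shorter.

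A further list of genes of fatty acid uptake, peroxisomal oxidation, thioesterases, ketone bodies and their regulators held 59 symbols, of which 56 were tested. In exercise against sedentary, 0 of 56 were called over all libraries or within either set, and the median log2 fold change was 0.12 over all libraries, 0.31 in libraries 4 to 6 and -0.02 in libraries 1 to 3. In the CD47-KO libraries against sedentary, 5 of 56 were called higher and 3 lower, beside 11.9% and 8.75% of all genes. Lpl, lipoprotein lipase, was at 1070, 2119 and 759 CPM in CD47-KO libraries, against 182, 257 and 485 CPM (lowest, median and highest of 6) in sedentary libraries, a log2 fold change of 2.17 ± 0.42 (adjusted p = 0.00168). Cd36, the fatty acid translocase, was at 434, 656 and 402 CPM in CD47-KO libraries, against 78.6, 137 and 160.3 CPM in sedentary libraries (1.94 ± 0.38, adjusted p = 0.00185). For neither did the groups overlap. Ppargc1a, the gene of PGC-1 alpha (1.15 ± 0.26, adjusted p = 0.00563), and Abcd2, a peroxisomal transporter of fatty acids (1.24 ± 0.32, adjusted p = 0.0115), were higher as well. After the GC correction these 4 genes lost their calls, with fold changes of 1.33 for Lpl (adjusted p = 0.0731), 0.31 for Cd36 (adjusted p = 0.639), 0.04 for Ppargc1a (adjusted p = 0.954) and 0.14 for Abcd2 (adjusted p = 0.869). Between the sets, 7 of 56 were higher and 10 lower in libraries 1 to 3, beside 16% and 15.4% of all genes. Ppargc1b, a coactivator related to PGC-1 alpha, had a log2 fold change of 1.82 ± 0.23 (adjusted p = 9.2e-05). That of Ppara, the receptor PPAR alpha, was 2.31 ± 0.37 (adjusted p = 0.000439). The limit given above for p-values between the sets holds here too.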

How the data were processed

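The deposited values were gene counts in 1 table of 15 libraries; per the submitters' processing notes, the authors used Trimmomatic 0.30, HISAT2 2.0.1, HTSeq 0.6.1 and the build GRCm38. Whether the counting used strand is not given in the sources used here. Among low deposited counts (1 to 15), 32.1 to 50.2% were 4, 8 or 12, so they may not be plain counts of single reads. Low counts were removed with filterByExpr, and libraries were scaled by TMM. Log2 CPM values were computed with a prior count of 2. Tests were run in edgeR 4.0.16 (R 4.3.3, robust quasi-likelihood), with Benjamini-Hochberg adjustment over all genes tested and a threshold of 0.05. SE is the fold change divided by the root of its F statistic. A fit of 3 groups gave exercise against sedentary and both CD47-KO comparisons. A fit of 5 groups, with the sets of numbers apart, gave the rest. Exon length and GC content came from GENCODE on GRCm38. The GC correction subtracted a lowess curve (span 0.3) of each library's deviation on GC content. DESeq2 1.42.0 and limma 3.58.1 were alternatives. The fits were tested on simulated data.

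Members, lists and the sets of numbers were chosen with earlier results of these data known. Genes were given values in each group by a rule: the 8 smallest p-values for exercise, up to 6 calls in each direction for CD47-KO against sedentary, up to 4 for CD47-KO against exercise and for the sets, the 6 smallest p-values of the difference between the sets and the most abundant gene of each role. Other genes with values were chosen after their values were seen. In exercise and sedentary libraries, deviations of same-numbered libraries from group means correlated at 0.194 to 0.364 by title number, against a median of 0.265 for other numbers of the same set. With the number as a block, exercise against sedentary still gave 0 calls among the 37 genes.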

Additional observations from a re-analysis of the deposited data

Results flagged for a closer look

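In the sedentary group, 3 of the 37 genes had their highest value far from the other 5 libraries, each time in sedentary library 1. Slc27a1 was at 167 CPM there, against 106 CPM in the next library and a median of 99.8 CPM. Acads was at 69.4 CPM, against 55.8 CPM in the next library and a median of 54.0 CPM. Acot1 was at 12.2 CPM, against 4.31 CPM in the next library and a median of 4.20 CPM. In all, 74 groups of 6 values were looked at, of which chance marks about 1 in 20.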

How the results depend on the processing

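The counts of the 37 genes called moved under several settings. For CD47-KO against sedentary (8 called), 4 were called with the GC correction, 14 with the replicate block and 14 with the block and the GC correction together. Of all genes, 3.88% were then called higher and 3.97% lower with the GC correction, 15% and 12% with the block, and 7.18% and 5.62% with both, beside 11.9% and 8.75%. The numbers do not pair these libraries (correlations of -0.102 to 0.047), so these values describe a shared number only. The CD47-KO libraries carry numbers 1 to 3 alone, so the block mainly sets them against libraries 1 to 3 of the other groups. Acot13, called higher with the block, was at 40.5 to 51.1 CPM in CD47-KO libraries. Sedentary libraries 1 to 3 had 27.7 to 29.8 CPM of it, and sedentary libraries 4 to 6 had 63.1 to 130 CPM. Leaving out each library in turn gave 5 to 10 calls, with 5 without CD47-KO library 2 (7.87% and 4.30% of all genes). For CD47-KO against exercise (7 called), the GC correction gave 3 (4.12% of all genes higher, 3.84% lower) and leaving out each library 4 to 8, with 4 without CD47-KO library 3 (9.18% and 3.39%). For exercise in libraries 4 to 6 (0 called), DESeq2 gave 2 (0.334% and 0.395%). Between the sets (13 called), the GC correction gave 20 (14% and 17.3%) and leaving out sedentary libraries 1 and 6, an alternative added after the data were seen, 22 (17.3% and 15.9%). Leaving out each library gave 11 to 19 there, with 19 without sedentary library 6 (18.3% and 16.9%). With the block and the GC correction together, Acaa1a reversed to 0.10 against sedentary (adjusted p = 0.732) and 0.067 against exercise (adjusted p = 0.829). Exercise against sedentary gave 0 calls among the 37 under all 27 alternatives. The causes were not tested. The lowest count of any of the 37 genes in any library was 17, that of Acsl4 in sedentary library 6, where the relative counting error is the highest.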
